A study of Mus musculus with 6 samples.

Results

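Aminoacyl-tRNA synthetase genes were read in 3 libraries of extraembryonic endoderm (XEN) cells and 3 libraries of embryonic stem (ES) cells of the mouse. The members were the genes whose symbol follows the naming pattern of the synthetases (a letter for the amino acid followed by ars, with an optional 1, 2, a or b), together with Eprs, Farsa, Farsb, the scaffold genes Aimp1, Aimp2 and Eef1e1, and the editing gene Aarsd1. This gave 41 members of 17710 genes, of which 20 encode cytosolic enzymes, 17 mitochondrial enzymes, 3 scaffold proteins and 1 an editing protein. All 41 were listed in all 6 tables and passed the filter on low counts. XEN cells, a line type of the primitive endoderm lineage that gives rise to yolk sac endoderm, came from strain ICR and grew in RPMI1640 with fetal bovine serum and the additions labelled Glut and BME. ES cells, a line type of the pluripotent epiblast, came from strain 129/Ola and grew on gelatin in N2B27-2iLIF, a serum-free medium with kinase inhibitors and LIF. Neither had feeder cells, so strain, medium and cell type cannot be told apart. Whether libraries A, B and C of a cell type are separate cultures is not labelled, so p-values measure the spread between these samples alone, which may be technical.

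Aminoacyl-tRNA synthetases join each amino acid to its own tRNA and so supply the ribosome with charged tRNA. Cytosol and mitochondria mostly use enzymes from separate nuclear genes, the mitochondrial ones ending in 2 in this family, whereas Gars and Kars each encode both forms and mitochondria make glutaminyl-tRNA by another route. Several cytosolic enzymes sit together in the multi-synthetase complex, which the scaffold proteins hold. When charged tRNA runs short, the kinase GCN2 raises translation of the transcription factor ATF4, whose known targets include amino acid transporters, amino acid synthesis enzymes and several cytosolic synthetases.

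Libraries held 21134720 to 22375875 expected counts in XEN cells and 20675311 to 22037793 in ES cells. The markers matched the labels. The 7 XEN markers summed to between 10614 and 11258 CPM (counts scaled to library size) in XEN libraries. In ES libraries they came to between 10.1 and 10.6 CPM. The 7 ES markers summed to between 152 and 172 CPM in XEN libraries, nearly all of it from Klf4. In ES libraries they came to between 5026 and 5106 CPM. Marker sums were scaled to library totals alone, whereas CPM of single genes were also scaled for library composition by TMM factors. Fibroblast, trophoblast and mesoderm or neural markers stayed at or below 9.75 CPM per list in XEN libraries, with Mesp1 at 0, and at or below 27.4 CPM in ES libraries.

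Synthetase transcripts were mostly lower in XEN cells than in ES cells. In the edgeR quasi-likelihood test over 13581 genes, at an adjusted p under 0.05, 29 of the 41 members fell, 8 rose and 4 did not pass. Over all genes tested 46.7% fell and 42.0% rose, so most genes differed between these lines. The median log2 fold change (XEN over ES) was -0.47 over the members and -0.07 over all genes tested. All 3 XEN libraries lay below all 3 ES libraries for 29 members and above them for 7, against 47.0% and 42.4% of all genes tested. The sizes were small. In the test against a change of 2-fold (glmTreat), 2 members passed, both lower and both mitochondrial, against 23.4% of all genes tested that passed as lower and 19.3% as higher. CPM counts a gene relative to the other transcripts of its library, so in these bulk libraries fewer cells with a transcript and less of it per cell cannot be told apart.

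**Figure D1:**
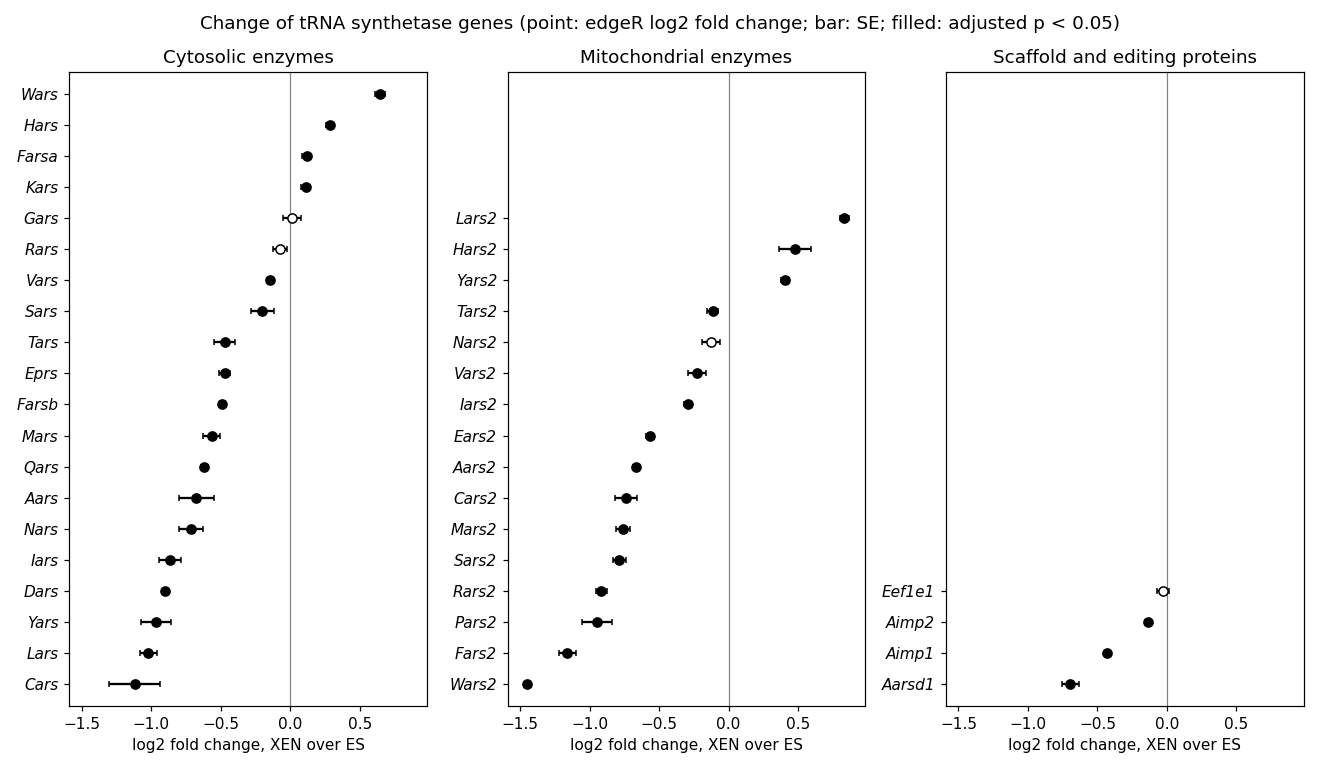
Log2 fold change (XEN over ES) of the members on the x axis, with cytosolic enzymes, mitochondrial enzymes and scaffold and editing proteins in separate panels; points are edgeR estimates from 3 libraries a group, bars are standard errors and open points did not pass an adjusted p of 0.05. Most points lie left of 0, between -1.45 for Wars2 and 0.83 for Lars2.

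Among the 20 cytosolic enzymes 14 fell, 4 rose and 2 did not pass, with a median log2 fold change of -0.48. Cars, which charges cysteine, had the largest fall of the 20, at 78.5, 104 and 121 CPM in XEN libraries A, B and C against 218, 223 and 219 CPM in ES libraries A, B and C. Its means were 101 ± 21.6 CPM in XEN cells and 220.0 ± 2.55 CPM in ES cells (SD, n = 3), a log2 fold change of -1.12 ± 0.18 (SE; edgeR adjusted p = 0.00306). The XEN libraries stayed well below the ES libraries but were spread widely, and Cars did not pass the test against 2-fold (edgeR adjusted p = 0.236). Lars, the leucine enzyme, had 139, 140.1 and 155 CPM in XEN libraries against 294, 307 and 281 CPM in ES libraries, and fell by 1.02 ± 0.06 on the log2 scale (edgeR adjusted p = 2.55e-14). Yars, the tyrosine enzyme, had 89.0, 99.4 and 113 CPM in XEN libraries against 200.4, 204 and 185 CPM in ES libraries, and fell by 0.97 ± 0.11 (edgeR adjusted p = 2.89e-05). In both genes every XEN library was below every ES library.

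Dars, the aspartate enzyme, showed the tightest groups of these 4, with 140.4, 143 and 143 CPM in XEN libraries against 264, 266 and 267 CPM in ES libraries and a log2 fold change of -0.90 ± 0.01 (edgeR adjusted p = 1.39e-15). The other 10 cytosolic enzymes that fell had log2 fold changes from -0.87 for Iars to -0.15 for Vars. Iars, the isoleucine enzyme, averaged 272 ± 23.8 CPM in XEN cells and 495 ± 18.0 CPM in ES cells, and Aars, the alanine enzyme, averaged 289 ± 40.9 CPM in XEN cells and 462 ± 24.0 CPM in ES cells. Nars (asparagine) changed by -0.71, Qars (glutamine) by -0.62, Mars (methionine) by -0.57, Farsb (the beta subunit of the phenylalanine enzyme) by -0.49, Eprs (a fused enzyme for glutamate and proline) by -0.47 and Tars (threonine) by -0.47. For each of the 14 that fell, all 3 XEN libraries were below all 3 ES libraries.

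The 4 cytosolic enzymes that rose did so by less than the larger falls. Wars, the interferon-inducible tryptophan enzyme, had 197, 201 and 214 CPM in XEN libraries against 131, 131 and 129 CPM in ES libraries, a 1.56-fold difference (log2 fold change 0.64 ± 0.04, edgeR adjusted p = 2.6e-12). Hars, the histidine enzyme, had 121, 121 and 115 CPM in XEN libraries against 96.0, 100 and 97.5 CPM in ES libraries (log2 fold change 0.28 ± 0.03, edgeR adjusted p = 2.17e-06). These 2 differences were well outside the spread of either group. Farsa, the alpha subunit of the phenylalanine enzyme, had 71.3, 73.1 and 75.8 CPM in XEN libraries against 66.5, 66.8 and 69.8 CPM in ES libraries (log2 fold change 0.12 ± 0.03, edgeR adjusted p = 0.0179). Kars, the lysine enzyme of cytosol and mitochondria, had 237, 253 and 246 CPM in XEN libraries against 221, 231 and 231 CPM in ES libraries (log2 fold change 0.11 ± 0.03, edgeR adjusted p = 0.0131). Farsa and Kars turned to -0.030 and -0.037 with upper-quartile scaling, which moved the median of all genes to -0.21, so 2 of the 4 rises depend on how libraries were scaled. Leaving out XEN library B or ES library A also ended the call of Kars, and leaving out XEN library C or ES library A or B that of Farsa.

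Gars, the glycine enzyme of both compartments, was the most abundant cytosolic enzyme per transcript length in both cell types, at 228 ± 17.5 FPKM (fragments scaled to gene length and library size) in XEN cells and 247 ± 3.22 FPKM in ES cells. It had 500.0, 553 and 580.1 CPM in XEN libraries against 535, 548 and 539 CPM in ES libraries, so that the XEN libraries reached both below and above the ES libraries. Its log2 fold change of 0.01 ± 0.06 did not pass (edgeR adjusted p = 0.848), but Gars was called lower with upper-quartile scaling (-0.14, edgeR adjusted p = 0.0152) and without composition factors (-0.12, edgeR adjusted p = 0.0203). Rars, the arginine enzyme, averaged 198 ± 9.05 CPM in XEN cells and 209 ± 8.97 CPM in ES cells with overlapping groups, and its log2 fold change of -0.07 did not pass (edgeR adjusted p = 0.108). Rars passed as lower in 7 of 17 alternatives, among them upper-quartile scaling (-0.22, edgeR adjusted p = 7.71e-05) and leaving out XEN library C or ES library A. The order of levels changed along with the fold changes. Gars and Nars led in ES cells, with Nars at 99.3 ± 10.1 FPKM in XEN cells and 178 ± 5.63 FPKM in ES cells, while Kars was second to Gars in XEN cells at 118 ± 4.51 FPKM, against 119.5 ± 2.30 FPKM in ES cells. Wars moved to rank 6 of the 20 in XEN cells, at 88.5 ± 3.08 FPKM, against rank 18 in ES cells, at 52.7 ± 0.732 FPKM. FPKM, unlike CPM of single genes, were not scaled for library composition. Their sum over all genes was 485336 to 504981 in XEN libraries and 538506 to 547993 in ES libraries. A lower FPKM in XEN cells can therefore stand beside a higher mean CPM, as for Gars and Kars.

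Promoter sequence was searched for TGATGNAA, the core of the C/EBP-ATF response element that ATF4 is known to bind, on both strands, where N is any base, and no other motif was searched. RefSeq promoter windows (build GRCm38.p6, 250 bases before to 50 after the start) were at hand for 31 of the 41 members; those without one included Cars, Hars, Hars2, Lars, Nars, Pars2, Rars, Vars and Wars. The motif was in a window of 5 of the 31 members (16.1%), all of them cytosolic enzymes (5 of 13). Of the 14 mitochondrial enzymes and the 4 scaffold and editing genes with a window, 0 held the motif. Over all genes with a window 4.51% held it in a window of the same length, and over the tested genes 2.67%. With the 250 bases before the start alone, 3 of the 31 members held it (9.68%). In that shorter window 3.91% of all genes with a window held it, and 2.37% of the tested genes. The 28 bases around 1 match in each of the 5 genes follow, read 5′ to 3′ on the strand of the gene from the same RefSeq build, with the match in capitals. They are shown so that each can be set beside the values of its gene. Aars holds a further match before the start, which is not shown.
Aars, chr8:111033841-111033868, plus strand, match starting at base 10 of the transcribed part: gcgggtcactTTTCATCAgagcgctctg
Gars, chr6:55037961-55037988, plus strand, match starting 30 bases before the start: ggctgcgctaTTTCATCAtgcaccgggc
Iars, chr13:49682127-49682154, plus strand, match starting at base 8 of the transcribed part: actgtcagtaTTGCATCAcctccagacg
Tars, chr15:11399656-11399683, minus strand, match starting 15 bases before the start: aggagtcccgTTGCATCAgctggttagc
Yars, chr4:129189896-129189923, plus strand, match starting at base 4 of the transcribed part: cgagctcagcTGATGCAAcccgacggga
In 4 of these 5 sites the motif lies on the strand opposite to the gene (its reverse complement is what the capitals show), and in Yars it lies on the strand of the gene. Of the 5 genes, 4 fell in XEN cells (Yars, Iars, Aars and Tars) and Gars did not pass. A match describes the letters of the window and does not show that a factor binds there.

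Among the 17 mitochondrial enzymes 12 fell, 4 rose and 1 did not pass, with a median log2 fold change of -0.57. Wars2, the tryptophan enzyme, had 22.6, 21.9 and 21.7 CPM in XEN libraries against 61.3, 59.6 and 60.0 CPM in ES libraries, a 2.74-fold lower level (log2 fold change -1.45 ± 0.02, edgeR adjusted p = 9.5e-17). Fars2, the phenylalanine enzyme, which works as a single chain, had 7.61, 6.90 and 7.89 CPM in XEN libraries against 16.3, 16.9 and 16.8 CPM in ES libraries (log2 fold change -1.16 ± 0.06, edgeR adjusted p = 7.16e-11). These were the 2 members that passed the test against 2-fold, with edgeR adjusted p = 6.94e-09 for Wars2 and 0.0283 for Fars2. Pars2, the proline enzyme, had 9.07, 11.1 and 11.4 CPM in XEN libraries against 20, 19.5 and 21.4 CPM in ES libraries (log2 fold change -0.95 ± 0.11, edgeR adjusted p = 1.9e-09). Rars2, the arginine enzyme, had 28.3, 29.7 and 30.9 CPM in XEN libraries against 57.1, 56.4 and 54.3 CPM in ES libraries (log2 fold change -0.92 ± 0.04, edgeR adjusted p = 3.82e-13). The groups were far apart in all 4 genes. The other 8 that fell had log2 fold changes from -0.79 for Sars2 (serine) to -0.11 for Tars2 (threonine), with Mars2 (methionine) at -0.76, Cars2 (cysteine) at -0.74, Aars2 (alanine) at -0.66 and Ears2 (glutamate) at -0.57. The call of Tars2 was lost without XEN library A, XEN library C or ES library A.

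Leucine, histidine and tyrosine enzymes of the mitochondria rose. Lars2, the leucine enzyme, had 21.8, 22.2 and 23.3 CPM in XEN libraries against 12.4, 12.8 and 12.5 CPM in ES libraries, a 1.78-fold higher level (log2 fold change 0.83 ± 0.03, edgeR adjusted p = 5.38e-10). Hars2, the histidine enzyme, had 22.3, 27.7 and 28.2 CPM in XEN libraries against 19.6, 18.1 and 18.6 CPM in ES libraries (log2 fold change 0.48 ± 0.11, edgeR adjusted p = 2.92e-05). Yars2, the tyrosine enzyme, had 40.4, 38.8 and 37.9 CPM in XEN libraries against 30.0, 29.3 and 29.0 CPM in ES libraries (log2 fold change 0.41 ± 0.03, edgeR adjusted p = 5.11e-07). In these 3 genes every XEN library was above every ES library. Hars2 overlaps Hars in the RefSeq gene table, so reads from their overlap may be counted for either gene. Nars2, the asparagine enzyme, did not pass, at 11.6 ± 0.623 CPM in XEN cells and 12.6 ± 0.724 CPM in ES cells (log2 fold change -0.13, edgeR adjusted p = 0.173), but was called lower with upper-quartile scaling (-0.27, edgeR adjusted p = 0.00596).

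Levels of the mitochondrial enzymes were low beside those of the cytosolic enzymes. Iars2, the isoleucine enzyme, was the most abundant per length in XEN cells, at 28.5 ± 0.606 FPKM, against 38.2 ± 1.0 FPKM in ES cells, where it was second to Wars2. Wars2 itself was at 11.5 ± 0.410 FPKM in XEN cells and 51.2 ± 1.46 FPKM in ES cells. Iars2 had 105, 101 and 101 CPM in XEN libraries against 125, 129 and 123 CPM in ES libraries, with no overlap (log2 fold change -0.29 ± 0.03, edgeR adjusted p = 1.09e-06). Ears2 was the lowest of the 17 in XEN cells, at 2.66 ± 0.0300 FPKM, and Lars2 the lowest in ES cells, at 3.45 ± 0.0666 FPKM. Summed over the class, the mitochondrial enzymes came to 176 ± 2.01 FPKM in XEN cells and 278 ± 3.04 FPKM in ES cells, a ratio of 0.634, and the cytosolic enzymes to 1499 ± 87.1 FPKM in XEN cells and 2114 ± 38.4 FPKM in ES cells, a ratio of 0.709. With FPKM divided by the TMM factor, XEN over ES came to 0.695 for the mitochondrial and 0.778 for the cytosolic enzymes, so both falls were smaller. Cytosolic over mitochondrial summed FPKM was 8.09, 8.40 and 9.03 in XEN libraries against 7.44, 7.79 and 7.58 in ES libraries, with no overlap. With 1 fixed length for each gene, an alternative chosen after seeing the data, the ratios were 8.0, 8.27 and 8.94 in XEN libraries against 7.82, 8.15 and 7.94 in ES libraries, and the groups overlapped.

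**Figure D2:**
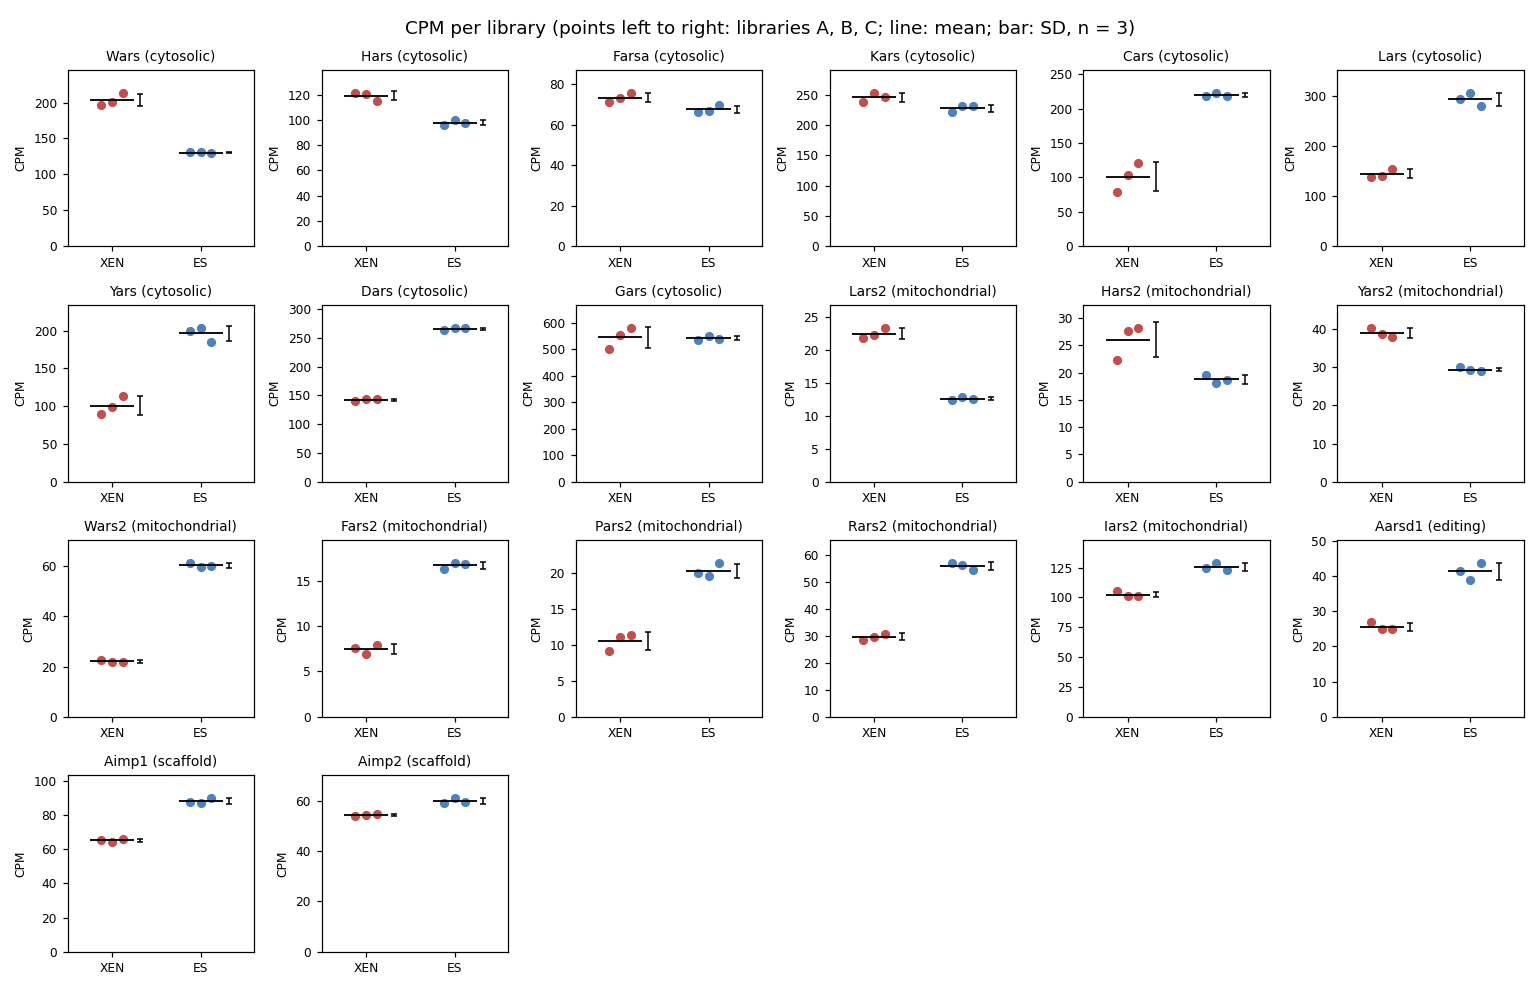
CPM of members named by the rule for values per library, 1 panel a gene, with XEN left of ES; points are libraries A, B and C, lines are means and bars are SDs (n = 3). The XEN points lie apart from the ES points in every panel other than that of Gars.

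Scaffold and editing genes changed little or fell. Aimp1, which also gives rise to the secreted cytokine EMAPII, had 65.4, 64.5 and 66.0 CPM in XEN libraries against 87.5, 86.8 and 90.0 CPM in ES libraries (log2 fold change -0.43 ± 0.02, edgeR adjusted p = 3.78e-09). Aimp2, the core scaffold of the complex, had 53.8, 54.4 and 54.7 CPM in XEN libraries against 58.9, 61.0 and 59.4 CPM in ES libraries (log2 fold change -0.14 ± 0.02, edgeR adjusted p = 0.00576). In both genes the groups did not overlap. Eef1e1, which binds Mars in the complex, averaged 69 ± 0.445 CPM in XEN cells and 70.5 ± 3.53 CPM in ES cells with overlapping groups (log2 fold change -0.03, edgeR adjusted p = 0.533), and was called lower with upper-quartile scaling (-0.18, edgeR adjusted p = 0.00126). Aarsd1, which removes wrong amino acids from alanine tRNA, had 26.9, 25 and 24.9 CPM in XEN libraries against 41.5, 38.9 and 43.8 CPM in ES libraries (log2 fold change -0.69 ± 0.06, edgeR adjusted p = 6.58e-10). Among the 11 genes of the multi-synthetase complex (Eprs, Iars, Lars, Mars, Qars, Rars, Kars, Dars and the 3 scaffold genes), 8 fell, 1 rose and 2 did not pass, with a median of -0.47, the same as over all members. Among cytosolic enzymes with the class I catalytic fold 7 of 9 fell and 1 rose, with a median of -0.62. Among those with the class II fold 6 of 10 fell and 3 rose, with a median of -0.34. Beside the complex and both classes, 46.7% of all genes tested fell and 42.0% rose. The difference between the classes was not tested.

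Because each compartment charges its own tRNA, the balance between both enzymes of an amino acid was read as the FPKM ratio of the cytosolic to the mitochondrial gene in 18 pairs. The cytosolic gene was the higher of the pair in all 6 libraries in all 18 pairs. For 6 pairs the ratio in each XEN library was below that in each ES library, for 7 it was above, and for 5 the groups overlapped. Eprs stands in the pairs with Ears2 and Pars2, and Fars2 in those with Farsa and Farsb. These pairs are all among the 7, so the 7 do not rest on separate genes. Eprs to Ears2 had the smallest difference of the 7, at 0.16 on the log2 scale. With 1 fixed length for each gene its difference was 0.094, and the groups of this pair overlapped. In 5 pairs the enzymes were called in opposite directions, and 4 of these are described. Leucine shifted toward the mitochondrial gene, with a Lars to Lars2 ratio of 6.57 ± 0.188 in XEN cells and 23.8 ± 0.786 in ES cells, a difference of -1.86 on the log2 scale. Tyrosine did so as well, with a Yars to Yars2 ratio of 1.18, 1.37 and 1.6 in XEN libraries against 3.58, 3.72 and 3.42 in ES libraries, a difference of -1.38.

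Phenylalanine and tryptophan shifted toward the cytosolic gene. The Farsa to Fars2 ratio was 9.96 ± 0.623 in XEN cells and 4.17 ± 0.0989 in ES cells, a difference of 1.26 on the log2 scale, and mostly followed the fall of Fars2. Wars to Wars2 moved furthest of the 18, with a ratio of 7.70 ± 0.456 in XEN cells and 1.03 ± 0.0152 in ES cells, a difference of 2.90. In ES cells both genes thus had nearly the same FPKM, which held for no other pair. That likeness depends on the deposited lengths of both genes in the ES tables. Part of the difference of 2.90 also comes from gene length. The deposited length of Wars2 was 1892 to 2003 bases in XEN tables and 1317 to 1347 in ES tables. With 1 fixed length for each gene the difference was 2.10. Among the pairs called in the same direction, Aars to Aars2 stayed level at 11.3 ± 1.52 in XEN cells and 11.4 ± 0.538 in ES cells.

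**Figure D3:**
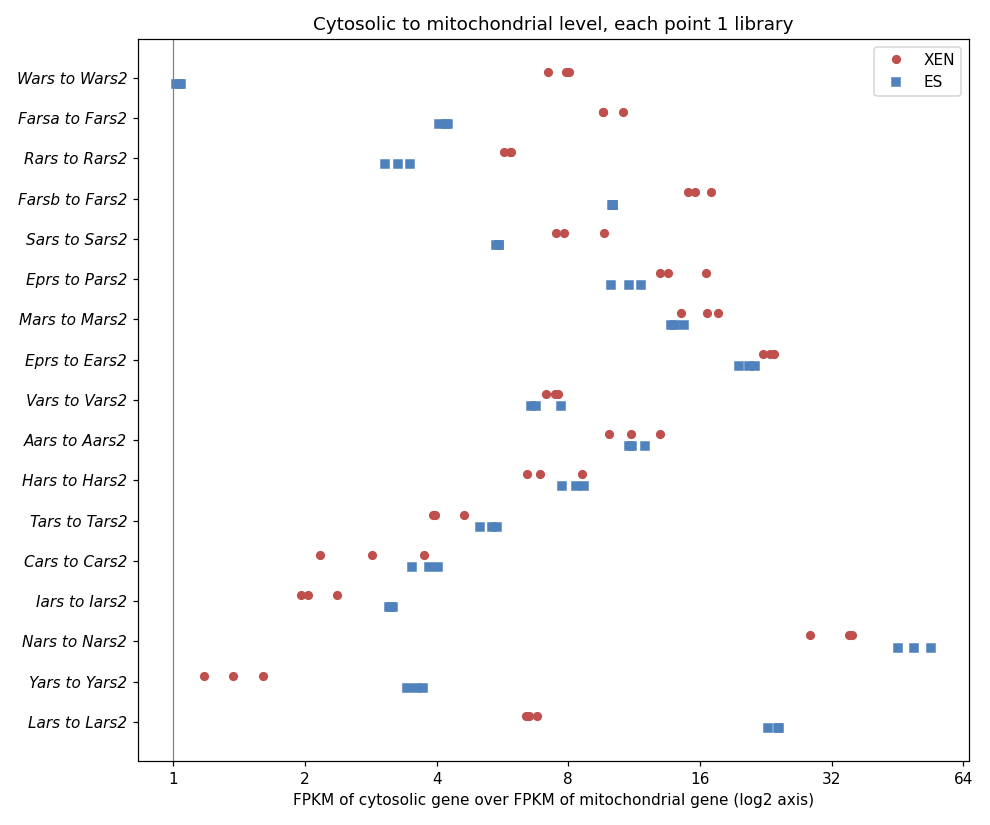
FPKM of the cytosolic over that of the mitochondrial gene on a log2 axis for 17 of the 18 pairs, with XEN libraries as circles above and ES libraries as squares below each pair's tick, 1 point a library. The ES squares of Wars to Wars2 lie near 1, against 7.70 on average for XEN, and the XEN circles of Lars to Lars2 lie near 6.57, against 23.8 for ES.

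The XEN libraries differed among themselves in part of the cytosolic enzymes. Library A was the lowest and library C the highest XEN library for 15 of the 20 cytosolic enzymes, 4 of the 17 mitochondrial enzymes and 16.9% of all genes tested. Cars was 1.55-fold higher in XEN library C than in XEN library A, Aars 1.32-fold, Yars 1.27-fold, Sars, the serine enzyme, 1.23-fold, Nars 1.22-fold and Tars 1.19-fold. Other cytosolic enzymes were nearly level, among them Vars (valine) at 1.0-fold, Qars at 1.02-fold and Dars at 1.02-fold. The coefficient of variation of CPM was larger among XEN than among ES libraries for 17 of the 20 cytosolic enzymes and for 7857 of all 13581 genes tested. Its medians over the cytosolic enzymes were 5.37% in XEN and 2.42% in ES libraries, against 4.13% in XEN and 2.58% in ES libraries for the mitochondrial enzymes. Over all genes tested the medians were 5.81% in XEN and 4.61% in ES libraries. Over tested genes averaging 50 CPM or more they were 3.65% in XEN and 2.73% in ES libraries. The coefficient of variation of Cars was 21.3% in XEN cells and 1.16% in ES cells. This pattern was noticed after the values were seen, and Cars, Aars and Yars have the widest standard errors of the 20.

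Genes of the amino acid response moved with those libraries. Library A was the lowest and library C the highest XEN library for 12 of 15 such genes, and Cebpb, Nupr1 and Slc7a11 did not show this order. Atf4 had 212, 273 and 329 CPM in XEN libraries against 322, 316 and 333 CPM in ES libraries. Asns, asparagine synthetase, had 219, 251 and 318 CPM in XEN libraries against 1201, 1235 and 1255 CPM in ES libraries. Trib3, an ATF4-induced pseudokinase, had 5.87, 10.2 and 14.5 CPM in XEN libraries against 51.6, 53.9 and 57.7 CPM in ES libraries. XEN library C thus came nearest to the ES level in all 3 genes. Of the 15 genes 11 fell and 2 rose between the cell types, whereas 46.7% of all genes tested fell and 42.0% rose. The 2 that rose were Vldlr (log2 fold change 1.66 ± 0.13, edgeR adjusted p = 8.05e-11) and Phgdh (0.91 ± 0.04, edgeR adjusted p = 1.26e-14). Asns changed by -2.23 ± 0.16 (edgeR adjusted p = 0.000135), whereas Atf4 did not pass (log2 fold change -0.25, edgeR adjusted p = 0.24). Chac1, a glutathione-degrading enzyme, did not pass either, at 2.30, 8.71 and 14 CPM in XEN libraries against 13.8, 15.0 and 13.8 CPM in ES libraries (edgeR adjusted p = 0.275). The part of these genes in the values of the synthetases was not tested. Among the 5 enzymes with the motif, the coefficient of variation in XEN cells ran from 7.49% for Gars to 14.1% for Aars. Among the 8 other cytosolic enzymes with a promoter window it ran from 1.08% for Dars to 10.2% for Sars. Among the cytosolic enzymes without a window it ran from 0.944% for Vars to 21.3% for Cars. These ranges overlap, and a relation between motif and spread was not tested.

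Other genes that prepare or carry charged tRNA were mixed. Of 12 such genes 5 fell, 3 rose and 4 did not pass, whereas 46.7% of all genes tested fell and 42.0% rose. Their median log2 fold change of -0.11 was near the -0.07 of all genes tested, so the list as a whole did not stand apart. Pstk and Sepsecs, which act in turn to make selenocysteine tRNA from serine tRNA charged by Sars, rose, at 23.0 ± 0.614 CPM in XEN cells and 13.1 ± 0.802 CPM in ES cells for Pstk (log2 fold change 0.81 ± 0.05, edgeR adjusted p = 1.2e-09) and at 9.12 ± 0.684 CPM in XEN cells and 5.32 ± 0.150 CPM in ES cells for Sepsecs (0.78 ± 0.07, edgeR adjusted p = 1.15e-06). Trnt1, which adds the terminal CCA to tRNA, rose by 0.30 on the log2 scale. Qrsl1 and Gatb, subunits of the amidotransferase that makes mitochondrial glutaminyl-tRNA, fell by 0.77 and 0.48 on that scale, while their partner Gatc did not pass (0.05, edgeR adjusted p = 0.504). Xpot, the nuclear export receptor of tRNA, fell to 147 ± 6.21 CPM in XEN cells, against 239.9 ± 5.66 CPM in ES cells. Of 6 tested elongation factor genes, 5 fell and Eef1d rose (0.61 ± 0.03, edgeR adjusted p = 4.55e-12). Eef1a1, the most abundant of them by CPM, averaged 12543 ± 635 CPM in XEN cells and 16863 ± 292 CPM in ES cells, a log2 fold change of -0.43.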

How the data were processed

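Total RNA was sequenced on the BGISEQ-500 platform, per the labels, and 1 table per library was deposited. The submitters' processing notes name the mm9 build, Bowtie2, RSEM and DESeq2, without versions or roles. The deposited expected counts per gene, named so per the file headers, are not all whole numbers, and the tables also hold the FPKM values and gene lengths of the authors. Of the members, 8 include a transcript added by the authors. Whether counting used strand is not given in the sources used here, and 10 members overlap another protein-coding gene in the RefSeq gene table (Hars and Hars2 each other; Mars and Ddit3; also Aars, Aimp1, Aimp2, Farsb, Iars2, Rars2 and Wars), so reads in those overlaps cannot be told apart.

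Expected counts were rounded, filtered with filterByExpr, scaled by TMM (factors 0.951 to 0.960 in XEN and 1.04 to 1.05 in ES libraries) and tested with edgeR 4.0.16 in R 4.3.3 (quasi-likelihood, robust, group only, Benjamini-Hochberg over 13581 genes, threshold 0.05; glmTreat at 2-fold). Errors of log2 fold changes come from the spread of log2 CPM with a prior count of 2. Libraries of a group differed by more than sampling noise. Summed FPKM and pair ratios got no test. The scripts were tested on simulated data. Values per library are given for up to 4 members of each class that passed, averaged 5 CPM or more and changed most in each direction, the member of each class with the highest FPKM, and pairs called in opposite directions; other genes named with values were chosen after their values were seen. All counts cover the 41 members, of which 1 mitochondrial enzyme is not reported here by name or in the figures. The members and lists were chosen with earlier results of these data known. Promoter windows and gene overlaps came from RefSeq, matched by gene ID for 31 and 41 members.

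Alternatives were scaling by RLE or upper quartile or by totals alone, other filters, the library letter as a block, each library left out, DESeq2 1.42.0, limma-voom and limma-trend (limma 3.58.1) on log2(FPKM + 1) and log2(FPKM + 0.1), and adding 1 unnamed model to Iars.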

Additional observations from a re-analysis of the deposited data

How the results depend on the processing

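Of the 41 members, 33 kept their direction and their side of the threshold in all 17 alternatives of the gene test, 28 of them lower and 5 higher in XEN cells. RLE scaling, no filter, limma-voom and the replicate block changed the call of no member. The number of cytosolic enzymes higher in XEN cells was 4, and 2 with upper-quartile scaling, without composition factors and in limma-trend with either pseudocount; it ran from 2 to 4 when each library was left out. The number of cytosolic enzymes lower in XEN cells was 14, 16 with upper-quartile scaling or without composition factors and 15 in both limma-trend fits, and that of mitochondrial enzymes was 12, and 13 in these 4 settings. Rars, Nars2 and Eef1e1, which did not pass, were called lower in all 4, and Gars in the first 2; Rars was also called lower when genes averaging 1 CPM or more were kept and without XEN library C or ES library A. Directions turned for Farsa (-0.030 with upper-quartile scaling, -0.017 without composition factors, -0.013 in both limma-trend fits), for Kars (-0.037, -0.024 and -0.024 in the same settings) and for Gars (-0.14, -0.12 and -0.12 there, and -0.0082 when genes averaging 1 CPM or more were kept), which ran from -0.036 without XEN library C to 0.069 without XEN library A. The median of all genes was -0.21 with upper-quartile scaling and -0.20 without composition factors, against -0.07 with TMM. The DESeq2 Wald test did not call Farsa and Tars2. The ratio of summed FPKM (XEN over ES) was 0.775 with TPM, 0.778 with FPKM divided by the TMM factor and 0.770 with 1 fixed length a gene for the cytosolic enzymes, and 0.693, 0.695 and 0.730 for the mitochondrial enzymes; the last setting, also used for the pair ratios, was chosen after seeing the data. The motif was in 3 members, not 5, in the 250 bases before the start, since the window is shorter. These were Gars, Tars and Aars, the last by the match not shown. The cause of the other changes was not tested.

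The labels do not say what a shared letter means. The deviations of same-lettered XEN and ES libraries correlated at 0.045, 0.043 and 0.060, too weakly to treat the letters as pairs, although each library correlated best with its own letter, so a small shared effect is not shown to be absent. With the letter as a replicate block 12000 genes were called, against 12044 without it.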

Other observations

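The deposited gene length, which RSEM weights by the transcripts it finds, differed between the groups for the tryptophan pair in opposite directions. Wars had 2275 to 2337 bases in XEN tables and 2666 to 2721 in ES tables, and Wars2 1892 to 2003 in XEN tables and 1317 to 1347 in ES tables, a ratio of XEN to ES of 0.856 and 1.45. Among the other members the ratio ran from 0.941 for Pars2 to 1.05 for Ears2. Both genes hold 1 transcript added by the authors, and transcript use was not tested.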
